A study of Rattus norvegicus with 6 samples.

Results

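The antioxidant defence of cultured heart cells was described through 37 genes: the NRF2 and KEAP1 switch, the enzymes that make and use glutathione, the thioredoxin system, the peroxiredoxins, the superoxide dismutases and catalase, the metallothioneins and ferritin. Each gene was looked up by its symbol in the deposited expression table of 22250 gene rows; 35 of the 37 symbols had a row, and the symbols Srxn1 and Gstm2 had none. RNA was measured by sequencing in neonatal rat cardiomyocytes, the beating muscle cells released with collagenase from the hearts of 1-day-old Sprague-Dawley rats and grown in a medium with fetal bovine serum. The treated cells were given 3Cl-HBA at 40 µM for 48 h (3 libraries), and the control cells were given DMSO, the solvent, with the same 48 h in the labels (3 libraries). Both groups were wild type. By its title the series asks what activating hydroxycarboxylic acid receptor 1, a lactate receptor, does to cardiomyocytes; the labels do not say that the 3 libraries of a group came from separate cultures or animals, so p-values speak for the spread between these libraries, which may be technical.

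As background, the transcription factor NRF2, encoded by Nfe2l2, is held in the cytosol by KEAP1 and destroyed until an oxidant or electrophile modifies KEAP1. It then enters the nucleus, pairs with a small Maf protein and binds antioxidant response elements near genes for glutathione synthesis, thioredoxin reductase, heme oxygenase and conjugating enzymes. Glutathione and thioredoxin are the thiol systems that feed electrons to peroxidases, and metallothioneins are small cysteine-rich proteins that bind zinc and are driven by the metal-sensing factor MTF1. Heart muscle is rich in mitochondria, a steady source of superoxide and hydrogen peroxide.

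None of the antioxidant genes passed the test between 3Cl-HBA and DMSO, and for most of them the data also bounded the size of any difference. Of the 33 rows with enough reads to test, 0 had an adjusted p under 0.05 in edgeR's quasi-likelihood test, where 0% of the 13903 genes tested passed. The 95% interval of the fold change lay within 1.25-fold in either direction for 30 of the 33 rows, among them Hmox1, Nqo1, Gclc, Gclm, Gpx1, Gpx3, Sod1, Sod2, Cat, Mt2A and every peroxiredoxin. The levels themselves covered a wide range: the extracellular glutathione peroxidase Gpx3 stood alone at the top at over 1000 FPKM, while the mitochondrial thioredoxin reductase Txnrd2 had a mean of 9.60 FPKM over the 6 libraries.

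The 6 libraries held 13240800 to 17202191 reads assigned to genes. No pair of libraries agreed within sampling noise, so none looked like the same library counted again. Each was counted as a separate sample. That spread cannot tell separate cultures from separate preparations of the same culture. Levels are given in FPKM, the authors' read counts scaled by gene length and library total, since values per length can be set side by side between genes; CPM, counts scaled by library total but not by length, were used to compare libraries, for a gene or for the sum over a marker list. In RNA from a whole culture, fewer cells of a type and less RNA per cell cannot be told apart. Cardiomyocyte markers were detected, 6 of 6, and summed to 19925 to 20165 CPM after 3Cl-HBA and 19744 to 21204 CPM in DMSO. Fibroblast markers were also detected, 6 of 6, and summed to 15159.7 to 15432 CPM after 3Cl-HBA and 15032 to 15993 CPM in DMSO. RNA of both cell types was thus present. Fibroblast Col1a1 averaged 1770 FPKM over the 6 libraries. The cardiomyocyte markers Actc1, Tnnt2 and Myh6 averaged 3366, 2423 and 1401 FPKM. Ryr2 (log2 fold change -0.17) and Myh7 (-0.097) had their groups apart with 3Cl-HBA lower, where 5.22% of all genes tested did. Neither passed, with adjusted p of 0.913 and 0.959 in edgeR's quasi-likelihood test. The 6 cardiomyocyte markers had a median of -0.0043, with 2 above 0.

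Several rows need care before their values are read. Fth1, the ferritin heavy chain, had 0 reads in each of the 6 libraries, where a count of 0 allows up to 3 reads per library by counting error alone. The Gpx4 row, the phospholipid hydroperoxide peroxidase that guards membranes against ferroptosis, had 0, 0 and 2 reads in the 3Cl-HBA libraries, against 2, 3 and 5 reads in the DMSO libraries. Both genes are widely expressed, and each row overlaps a gene on the other strand, Best1 for Fth1 and Sbno2 for Gpx4; the sources used here give neither the strand setting nor the handling of reads that match several places, and their part in these counts was not tested. These were the 2 rows below the low-count filter, and no fold change is given for them.

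The row named Ftl1, the ferritin light chain, lies at chromosome 5, 152325871 to 152326778, plus strand in the file's coordinates, and its span equals its length of 908 bases, so it is listed without an intron. It held 24, 28 and 25 reads in the 3Cl-HBA libraries, against 27, 18 and 41 reads in the DMSO libraries. The gene number it carries belongs in RefSeq to LOC100360087, while a row named LOC100360087 carries the gene number that RefSeq gives to Ftl1. That row, at chromosome 1, 101448346 to 101449829, minus strand, held 5722, 7525 and 6393 reads in the 3Cl-HBA libraries, against 5179, 5284 and 5418 reads in the DMSO libraries. The light chain level therefore depends on which row is read. Among 12 rows whose description names ferritin, 5 had 0 reads in every library and only 1, LOC100360087, had over 100 reads in every library.

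By the same gene numbers, 2 other rows stand for the symbols that were not matched. The row AABR07054319.1 carries the RefSeq number of Srxn1, sulfiredoxin, which repairs overoxidised peroxiredoxins, and the row Gstm7 carries that of Gstm2, a mu-class glutathione transferase. The row named Mt1 is also doubtful. It lies at chromosome 17, 78793336 to 78793724, plus strand, has a span equal to its length of 389 bases and overlaps Dclre1c on the other strand, whereas RefSeq places Mt1 next to Mt2A on chromosome 19. Metallothionein genes are split by introns, so the values of the Mt1 row are given as those of a row with that name.

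The levels spread over several bands: by mean over the 6 libraries 14 of the 35 rows were at or above 100 FPKM, 17 were between 10 and 100 FPKM, and 4, namely Txnrd2, Ftl1, Gpx4 and Fth1, had means below 10 FPKM. Gpx3, which is secreted and reduces peroxides outside the cell, had 1079, 1090.2 and 1079 FPKM in the 3Cl-HBA libraries, against 1089.7, 1071 and 1158 FPKM in the DMSO libraries. No other member reached its lowest library, and it ranked 28 by mean FPKM among all rows of the table. Next came 6 genes whose library values overlapped their neighbours in the order, namely Prdx1, Txnip, Sod1, Gpx1, Prdx2 and Mt2A, with means over the 6 libraries of 309, 289.7, 274, 253, 253 and 250.3 FPKM. A gap followed before Gstp1 at 158 FPKM. Over the whole order, 24 of the 32 neighbouring pairs overlapped in their library values and 8 did not, so the order within a band is not resolved.

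**Figure D1:**
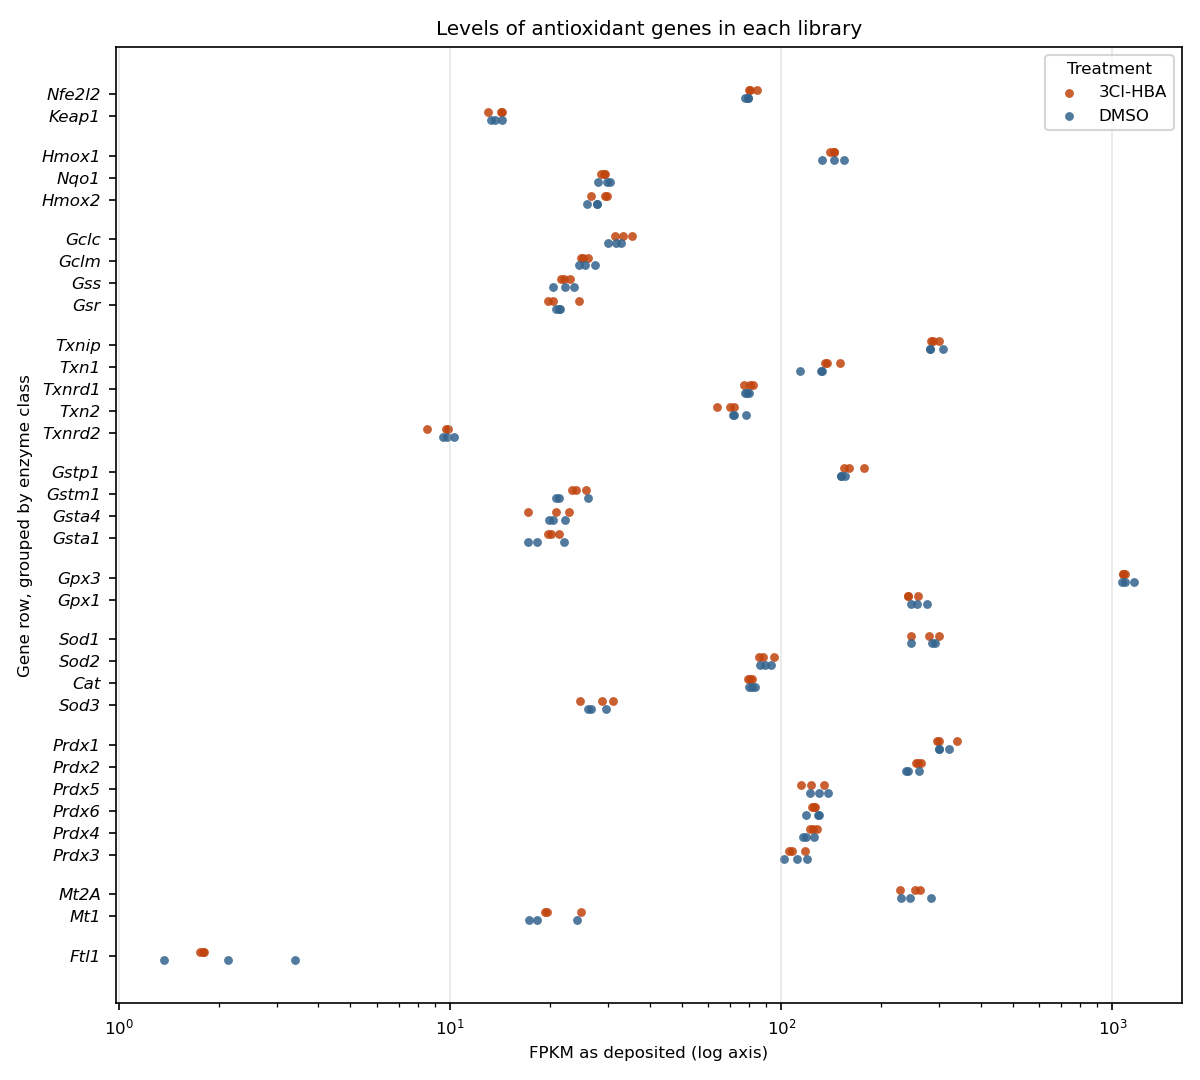
Level of each of the 33 tested rows in each library, as deposited FPKM on a log axis, with rows grouped by enzyme class; each dot is a library, 3Cl-HBA drawn above DMSO. Gpx3 stands apart near 1000 FPKM, the Ftl1 row lies lowest, and the dots of both treatments overlap in nearly every row.

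At the switch itself, Nfe2l2 RNA was more abundant than that of its inhibitor Keap1, with a ratio of 5.64 to 6.12 in the 3Cl-HBA libraries and 5.54 to 5.84 in the DMSO libraries. Nfe2l2 had 84.5, 80.3 and 79.8 FPKM in the 3Cl-HBA libraries, against 77.8, 79.6 and 79.1 FPKM in the DMSO libraries. The 3 treated libraries were all above the 3 DMSO libraries, but the difference was small, a log2 fold change of 0.051 (SE 0.050) with an interval of 0.966- to 1.11-fold and an adjusted p of 0.984. NRF2 is controlled mainly at the level of its protein, which was not measured here. Keap1, the adaptor that hands NRF2 to the CUL3 ubiquitin ligase, had 14.3, 14.2 and 13.0 FPKM in the 3Cl-HBA libraries, against 13.3, 14.4 and 13.6 FPKM in the DMSO libraries. Those values overlapped, with a log2 fold change of 0.012 (SE 0.075).

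Among the quinone and heme enzymes, Hmox1 was the most abundant. This inducible heme oxygenase, a standard readout of NRF2 and of heme stress, had 144, 140.2 and 144 FPKM in the 3Cl-HBA libraries, against 144, 133 and 155 FPKM in the DMSO libraries. Treated values lay within the range of the DMSO libraries, the log2 fold change was -0.0044 (SE 0.052) and its interval ran from 0.927- to 1.07-fold. Nqo1, the quinone reductase often used as the marker of NRF2 activity, had 29.0, 28.5 and 29.4 FPKM in the 3Cl-HBA libraries, against 28.0, 29.8 and 30.3 FPKM in the DMSO libraries. Again the groups overlapped, with a log2 fold change of -0.017 (SE 0.072) and an interval of 0.893- to 1.09-fold. Hmox2, the constitutive heme oxygenase, averaged 28.6 ± 1.77 FPKM after 3Cl-HBA and 27.1 ± 1.11 FPKM in DMSO (SD, n = 3 each). The ratio of Hmox1 to Hmox2 was 4.85 to 5.28 in the 3Cl-HBA libraries and 5.14 to 5.55 in the DMSO libraries.

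Glutathione is made by glutamate-cysteine ligase, a catalytic subunit (Gclc) with a modifier (Gclm), and then by glutathione synthetase (Gss); glutathione reductase (Gsr) returns the oxidised form to use. Gclc, the rate-limiting subunit, had 35.5, 31.4 and 33.4 FPKM in the 3Cl-HBA libraries, against 30.0, 32.9 and 31.7 FPKM in the DMSO libraries. Treated library 2 lay among the DMSO values, so the groups overlapped, and the log2 fold change was 0.084 (SE 0.059). Gclm had 25.2, 26.1 and 24.8 FPKM in the 3Cl-HBA libraries, against 24.5, 27.3 and 25.5 FPKM in the DMSO libraries, with a log2 fold change of -0.020 (SE 0.078). The 2 subunits were thus near one another in RNA level, at a Gclc to Gclm ratio of 1.20 to 1.40 in the 3Cl-HBA libraries and 1.21 to 1.24 in the DMSO libraries. Gss averaged 22.2 ± 0.755 FPKM after 3Cl-HBA and 22.1 ± 1.57 FPKM in DMSO, and Gsr averaged 21.5 ± 2.53 FPKM after 3Cl-HBA and 21.2 ± 0.294 FPKM in DMSO (SD, n = 3 each). Both had intervals inside 1.25-fold.

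Txn1 gave the largest difference of the thioredoxin system and the only unadjusted p under 0.05 among the members. Thioredoxin 1 is the cytosolic dithiol carrier that reduces peroxiredoxins and ribonucleotide reductase. It had 151, 138 and 135 FPKM in the 3Cl-HBA libraries, against 114, 133 and 131 FPKM in the DMSO libraries. All 3 treated libraries were above all 3 DMSO libraries, with DMSO library 1 the lowest; without that library the log2 fold change was 0.097. With all libraries the log2 fold change was 0.17 (SE 0.078), its interval ran from 1.01- to 1.25-fold, and the unadjusted p of 0.0387 became 0.959 after Benjamini-Hochberg adjustment over the 13903 genes in edgeR's quasi-likelihood test. Over all genes tested, 5.11% had an unadjusted p under 0.05, against 1 of the 33 members; that count was 0 to 4 on leaving out a library, highest without DMSO library 3, and 2 with the length trend removed.

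Txn2, the mitochondrial thioredoxin, averaged 68.7 ± 4.10 FPKM after 3Cl-HBA and 73.9 ± 3.95 FPKM in DMSO (SD, n = 3 each), a log2 fold change of -0.11 (SE 0.063), opposite in sign to that of Txn1. The ratio of Txn1 to Txn2 was 1.93 to 2.15 in the 3Cl-HBA libraries and 1.60 to 1.84 in the DMSO libraries. Those ratios did not overlap, and they were chosen for display with both log2 fold changes known, so they are a description without a test. Txnip, which binds thioredoxin and limits glucose uptake, had 283, 286 and 299 FPKM in the 3Cl-HBA libraries, against 282, 281 and 307 FPKM in the DMSO libraries, with a log2 fold change of -0.0018 (SE 0.045) and an interval of 0.938- to 1.06-fold. The reductases that recharge the thioredoxins from NADPH stood far apart in level: cytosolic Txnrd1 averaged 80.0 ± 2.42 FPKM after 3Cl-HBA and 78.9 ± 0.999 FPKM in DMSO, and mitochondrial Txnrd2 averaged 9.36 ± 0.741 FPKM after 3Cl-HBA and 9.85 ± 0.378 FPKM in DMSO (SD, n = 3 each). Srxn1, read from AABR07054319.1, had 13.3, 13.7 and 13.3 FPKM in the 3Cl-HBA libraries, against 15.0, 16.0 and 13.3 FPKM in the DMSO libraries, with a log2 fold change of -0.14 (SE 0.14).

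Glutathione transferases join glutathione to electrophiles, and the pi-class gene Gstp1 led them, with a Gstp1 to Gstm1 ratio of 6.24 to 7.38 in the 3Cl-HBA libraries and 5.98 to 7.27 in the DMSO libraries. Gstp1 had 177, 155 and 160.0 FPKM in the 3Cl-HBA libraries, against 152, 151 and 155 FPKM in the DMSO libraries. The lowest treated value lay between the DMSO values, so the groups overlapped; the log2 fold change was 0.10 (SE 0.056) with an unadjusted p of 0.0729 and an adjusted p of 0.975 in edgeR. Gstm1 had 24.0, 23.3 and 25.6 FPKM in the 3Cl-HBA libraries, against 21.3, 20.8 and 26.0 FPKM in the DMSO libraries. DMSO library 3 was the highest of the 6, and the log2 fold change of 0.10 came with an SE of 0.094. Gsta1 averaged 20.4 ± 0.805 FPKM after 3Cl-HBA and 19.1 ± 2.58 FPKM in DMSO, and Gsta4, which clears the lipid peroxidation product 4-hydroxynonenal, averaged 20.3 ± 2.86 FPKM after 3Cl-HBA and 20.8 ± 1.28 FPKM in DMSO (SD, n = 3 each). The Gsta1 row overlaps Gsta3 on the other strand, and transferases of a class are similar in sequence, so reads of the alpha and mu genes may be shared between rows. Gstm2, read from the Gstm7 row, had 38.5, 35.3 and 38.2 FPKM in the 3Cl-HBA libraries, against 36.0, 38.9 and 41.1 FPKM in the DMSO libraries, a log2 fold change of -0.050 (SE 0.064).

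The glutathione peroxidases are selenium enzymes. Beside Gpx3, the cytosolic and mitochondrial enzyme Gpx1 had 258, 241 and 242 FPKM in the 3Cl-HBA libraries, against 247, 275 and 257 FPKM in the DMSO libraries. Its groups overlapped, with a log2 fold change of -0.070 (SE 0.050) and an interval of 0.888- to 1.02-fold. For Gpx3 the log2 fold change was -0.029 (SE 0.042) and the interval 0.925- to 1.04-fold. The secreted enzyme exceeded Gpx1 by a factor of 4.18 to 4.53 in the 3Cl-HBA libraries and 3.90 to 4.50 in the DMSO libraries.

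Superoxide dismutases turn superoxide into hydrogen peroxide, and catalase breaks hydrogen peroxide down in peroxisomes. Sod1, the copper and zinc enzyme of the cytosol, had 300.2, 246 and 279 FPKM in the 3Cl-HBA libraries, against 246, 284 and 291 FPKM in the DMSO libraries. Sod2, the manganese enzyme of the mitochondrial matrix, had 94.7, 85.5 and 87.9 FPKM in the 3Cl-HBA libraries, against 86.1, 93.2 and 89.1 FPKM in the DMSO libraries. Both sets overlapped, and the log2 fold changes were 0.0066 (SE 0.067) for Sod1 and -0.00092 (SE 0.052) for Sod2. The Sod1 to Sod2 ratio was 2.87 to 3.17 in the 3Cl-HBA libraries and 2.86 to 3.26 in the DMSO libraries. Sod3, the extracellular form, was lower at 28.2 ± 3.28 FPKM after 3Cl-HBA and 27.4 ± 1.88 FPKM in DMSO, and Cat averaged 80.3 ± 1.08 FPKM after 3Cl-HBA and 81.7 ± 1.64 FPKM in DMSO (SD, n = 3 each), with an interval of 0.919- to 1.05-fold.

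Peroxiredoxins reduce hydrogen peroxide with a reactive cysteine and were the only class with all members above 100 FPKM. Prdx1, a cytosolic enzyme and NRF2 target, had 340.1, 296 and 299 FPKM in the 3Cl-HBA libraries, against 299, 322 and 299.5 FPKM in the DMSO libraries. Treated library 1 was the highest and treated library 2 the lowest of the 6, and the log2 fold change was 0.024 (SE 0.051). Prdx2, also cytosolic and abundant in red blood cells, had 259, 255 and 264 FPKM in the 3Cl-HBA libraries, against 242, 238 and 261 FPKM in the DMSO libraries. Its groups overlapped through DMSO library 3, with a log2 fold change of 0.072 (SE 0.050) and an unadjusted p of 0.154. Beside it, 7 of 8 listed erythroid markers had a row, and these summed to 47.4, 42.0 and 35.6 CPM after 3Cl-HBA, against 35.3, 35.8 and 37.2 CPM in DMSO; the hemoglobin row Hba-a1 had a log2 fold change of 0.49 (unadjusted p 2.46e-04, adjusted p 0.845, edgeR), Hbb-b1 had 0 reads everywhere, the other 4 tested rows ran from -0.071 for Ahsp to 0.021 for Hba-a2, the median of the 5 tested was 0.0077, and the part of red cell RNA in the Prdx2 and Cat values was not tested. Prdx3 of mitochondria averaged 111 ± 6.33 FPKM after 3Cl-HBA and 111 ± 8.66 FPKM in DMSO, and Prdx4 of the endoplasmic reticulum averaged 125 ± 3.18 FPKM after 3Cl-HBA and 120.0 ± 4.71 FPKM in DMSO (SD, n = 3 each). Prdx5, found in several compartments, averaged 124 ± 9.89 FPKM after 3Cl-HBA and 130.0 ± 8.15 FPKM in DMSO, and Prdx6, which uses glutathione, averaged 125 ± 1.19 FPKM after 3Cl-HBA and 126 ± 6.11 FPKM in DMSO (SD, n = 3 each).

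Of the 2 metallothionein rows Mt2A was by far the higher, with an Mt2A to Mt1 row ratio of 9.21 to 13.4 in the 3Cl-HBA libraries and 11.8 to 14.1 in the DMSO libraries. Mt2A had 254, 262 and 229 FPKM in the 3Cl-HBA libraries, against 244, 229.7 and 283 FPKM in the DMSO libraries. DMSO library 3 was the highest and treated library 3 the lowest of the 6, and the log2 fold change was -0.020 (SE 0.068) with an interval of 0.897- to 1.08-fold. The Mt1 row had 19.4, 19.6 and 24.8 FPKM in the 3Cl-HBA libraries, against 17.3, 18.3 and 24.1 FPKM in the DMSO libraries. Library 3 was the highest of each treatment there, and the few reads left a wide interval of 0.857- to 1.34-fold around a log2 fold change of 0.10 (SE 0.16).

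For ferritin, the row named Ftl1 had 1.81, 1.79 and 1.75 FPKM in the 3Cl-HBA libraries, against 2.13, 1.37 and 3.41 FPKM in the DMSO libraries. The DMSO values ranged on both sides of the treated values; its log2 fold change of -0.36 (SE 0.33) was the lowest of the members and had an interval of 0.493- to 1.24-fold. The LOC100360087 row, which carries the RefSeq number of Ftl1, had 709.6, 792 and 736 FPKM in the 3Cl-HBA libraries, against 673, 660.2 and 741 FPKM in the DMSO libraries. That places the light chain between Gpx3 and Prdx1 in level and at rank 57 among all rows. Its groups overlapped in CPM, and the log2 fold change was 0.11 (SE 0.050), an interval of 1.01- to 1.16-fold, with an unadjusted p of 0.0309 and an adjusted p of 0.959 in edgeR's quasi-likelihood test.

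Sums by class used the rows found by symbol, so they leave out Srxn1 and Gstm2 and include the doubtful Gpx4 and Mt1 rows. Ferritin was left out of the order, and LOC100360087 alone averaged 719 FPKM over the 6 libraries. Among the classes summed, the glutathione peroxidases held the most RNA, most of it Gpx3, at 1329.7 ± 8.04 FPKM after 3Cl-HBA and 1366 ± 42.8 FPKM in DMSO (SD, n = 3 each). The peroxiredoxins summed to 1056 ± 42.3 FPKM after 3Cl-HBA and 1041 ± 28.6 FPKM in DMSO, and the thioredoxin system to 589 ± 9.22 FPKM after 3Cl-HBA and 579 ± 25.1 FPKM in DMSO. Superoxide dismutases and catalase came to 473 ± 28.1 FPKM after 3Cl-HBA and 472 ± 23.6 FPKM in DMSO. Lower sums were those of the metallothioneins, 269.5 ± 14.5 FPKM after 3Cl-HBA and 272 ± 31.0 FPKM in DMSO, the glutathione transferases, 229 ± 15.5 FPKM after 3Cl-HBA and 216 ± 6.86 FPKM in DMSO, and the quinone and heme enzymes, 201 ± 4.67 FPKM after 3Cl-HBA and 200.2 ± 12.1 FPKM in DMSO. Glutathione synthesis and reduction took 103 ± 4.89 FPKM after 3Cl-HBA and 101 ± 3.69 FPKM in DMSO, and the NRF2 switch 95.4 ± 3.11 FPKM after 3Cl-HBA and 92.6 ± 1.42 FPKM in DMSO. For every class the range of the treated libraries overlapped that of the DMSO libraries.

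**Figure D2:**
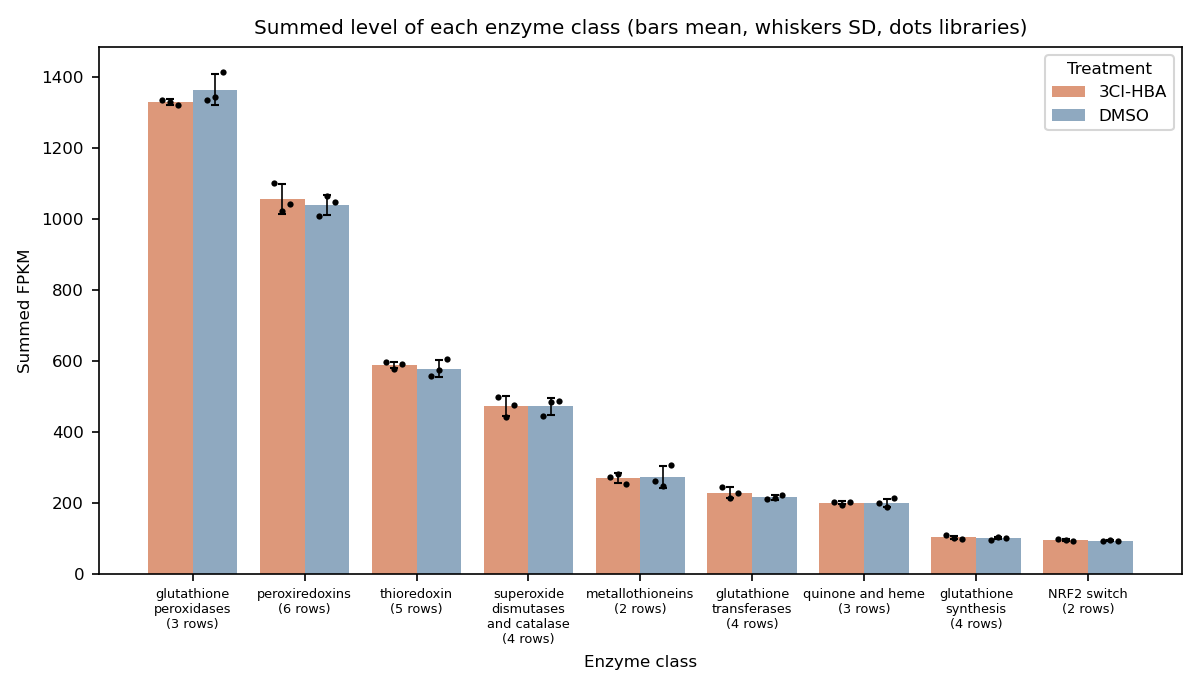
Summed FPKM of the member rows of each enzyme class, ferritin left out; bars are group means, whiskers are SD over 3 libraries and dots are libraries, with 3Cl-HBA left of DMSO. Glutathione peroxidases lie highest (1329.7 FPKM after 3Cl-HBA, 1366 FPKM in DMSO) and the NRF2 switch lowest, and in each class the dots of both treatments overlap.

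By compartment, the 4 mitochondrial rows, Sod2, Prdx3, Txn2 and Txnrd2, summed to 278 ± 15.3 FPKM after 3Cl-HBA and 284 ± 13.5 FPKM in DMSO (SD, n = 3 each). Their log2 fold changes were all below 0, with a median of -0.041, and none passed the test. Sod2 (-0.00092) and Prdx3 (-0.0067) lay next to 0 and reached 0.027 and 0.047 on leaving out a library. Gpx1, also found in mitochondria, was counted with the cytosol. The secreted pair of Gpx3 and Sod3 summed to 1111 ± 9.32 FPKM after 3Cl-HBA and 1133 ± 45.4 FPKM in DMSO. The endoplasmic reticulum rows, Prdx4, Hmox1 and Hmox2, summed to 297 ± 5.51 FPKM after 3Cl-HBA and 291 ± 12.0 FPKM in DMSO. Of 21 tested rows of the cytosol, 13 lay above 0 on the log2 scale (median 0.012), where 49.8% of all genes tested were above 0.

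The NRF2 targets were taken apart from the rest, with 17 listed and 15 found by symbol. The rows found by symbol summed to 1142 ± 52.4 FPKM after 3Cl-HBA and 1107 ± 30.6 FPKM in DMSO (SD, n = 3 each). That sum counts ferritin through the nearly empty Ftl1 and Fth1 rows. It leaves out LOC100360087, which averaged 746 FPKM after 3Cl-HBA and 691 FPKM in DMSO. Of the 14 tested, 8 lay above 0 on the log2 scale (median log2 fold change 0.022), from -0.36 for the Ftl1 row to 0.17 for Txn1. Of the other 19 tested members, 9 lay above 0, and their median was -0.00092. With rows chosen by RefSeq gene number, 9 of 16 tested targets lay above 0. Txn1 and LOC100360087, the rows with an unadjusted p under 0.05 in edgeR's quasi-likelihood test, were both targets with 3Cl-HBA higher. Neither passed, and 5.11% of all genes tested had such a p. On leaving out a library the median of the targets ran from 0.00054 to 0.056 and that of the other members from -0.030 to 0.026, and with the length trend removed the targets' median was 0.0041, so the medians of both kinds are not shown to differ. None of either kind passed. Intervals stayed inside 1.25-fold for 12 of the 14 tested targets, where 59.6% of all genes tested had such intervals. The exceptions were Txn1, the only 1 of the 14 clear of no difference, and the Ftl1 row. Prdx6, Hmox1, Nqo1, Gclm, Gsr, Txnrd1 and Prdx1 lay nearest 0. Gclc, Gstp1, Gsta1 and Gstm1 had log2 fold changes of 0.084, 0.10, 0.098 and 0.10, with intervals that included no difference. The interval of Srxn1, read from AABR07054319.1, reached down to 0.752-fold.

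RefSeq promoter windows of assembly GRCr8, from 250 bases before to 50 bases after each annotated start, were matched by symbol to 30 of the 37 members and gave 34 windows. The core of the antioxidant response element, TGACNNNGC on either strand, was present in 12 of the 34 windows (35.3%), and 12.1% of all 33465 RefSeq windows of that length held it. NRF2 target windows had it in 5 of 13 (38.5%) and other member windows in 7 of 21 (33.3%). The windows of Txn1, Nqo1, Gclc, Srxn1, Gstm1, Gstm2 and Gsta4 do not hold these letters, which says nothing of sites outside them. The targets Hmox1, Gsr, Prdx6, Fth1 and Ftl1 had no window and were not searched. A match is a run of letters, not evidence of binding. The targets with a match were Gstp1, Gclm, Prdx1, Gsta1 and Txnrd1, which has a second window without it. In Gstp1, Gclm, Prdx1 and Txnrd1 the core lies before the start, and not after it as in Gsta1. Their stretches are shown with the core in capitals, as matches to the searched letters only. They lie at chr1:210769748-210769776 (minus strand), chr2:213031953-213031981 (plus strand), chr5:135383761-135383789 (plus strand) and chr7:22755964-22755992 (minus strand), written along the gene's strand, and the core's first base as written lies at -61, -172, -135 and -78 from the start.
Gstp1: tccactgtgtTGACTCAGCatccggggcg
Gclm: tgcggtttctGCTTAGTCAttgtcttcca
Prdx1: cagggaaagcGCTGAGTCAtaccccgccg
Txnrd1: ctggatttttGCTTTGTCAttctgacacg

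In Gstp1 the core reads in the direction of the gene, and in the other 3 it reads on the opposite strand. The targets with these letters had log2 fold changes of 0.10 for Gstp1, -0.020 for Gclm, 0.024 for Prdx1, 0.098 for Gsta1 and 0.022 for Txnrd1, none of which passed.

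Metal response elements, the sites of MTF1, were searched as the cores TGCACNC and TGCGCNC on either strand. They were in 8 of the 34 member windows (23.5%), and 24.2% of all RefSeq windows held them, so a match is common; a stretch that reads as a core on both strands counts once per strand. The metallothionein windows held clusters of them, 6 matches in Mt1 and 4 in Mt2A, and no other member window held over 3. Both stretches are shown with the cores in capitals; they lie at chr19:10833014-10833161 (minus strand) and chr19:10838747-10838938 (minus strand) in GRCr8, written along the gene's strand. The Mt1 stretch is that of the RefSeq gene beside Mt2A, not of the chromosome 17 row whose reads are given above.
Mt1: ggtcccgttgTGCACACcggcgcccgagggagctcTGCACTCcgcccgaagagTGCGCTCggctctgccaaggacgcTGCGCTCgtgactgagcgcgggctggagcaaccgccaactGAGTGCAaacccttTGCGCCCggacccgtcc
Mt2A: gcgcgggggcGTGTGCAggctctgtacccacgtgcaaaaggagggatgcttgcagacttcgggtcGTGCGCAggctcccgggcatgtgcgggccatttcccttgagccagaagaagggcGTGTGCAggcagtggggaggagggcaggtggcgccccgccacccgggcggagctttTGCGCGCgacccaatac

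In these windows the antioxidant core also occurs once in each metallothionein gene. With Mt2A at a log2 fold change of -0.020, no difference in metallothionein RNA was detected that passed the test.

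Across all members the treatment difference was centred on 0. Of the 33 tested, 17 (51.5%) lay above 0 on the log2 scale (median 0.0057), and so did 49.8% of all genes tested (median -0.00052). The groups did not overlap in CPM with 3Cl-HBA higher for 2 members, Nfe2l2 and Txn1, where 5.24% of all genes tested had that pattern. With 3Cl-HBA lower it was 0 of the tested members, against 5.22% of all genes. The untested Gpx4 row, with 5 reads or fewer in a library, had its 3 treated CPM values below its 3 DMSO values. DESeq2, run on 18107 genes without the low-count filter, called 0 members and 0 genes and gave 0 members and 405 genes an unadjusted p under 0.05. On the same 13903 genes as edgeR, limma-voom called 0 members and 1 gene and gave 1 member and 699 genes an unadjusted p under 0.05.

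**Figure D3:**
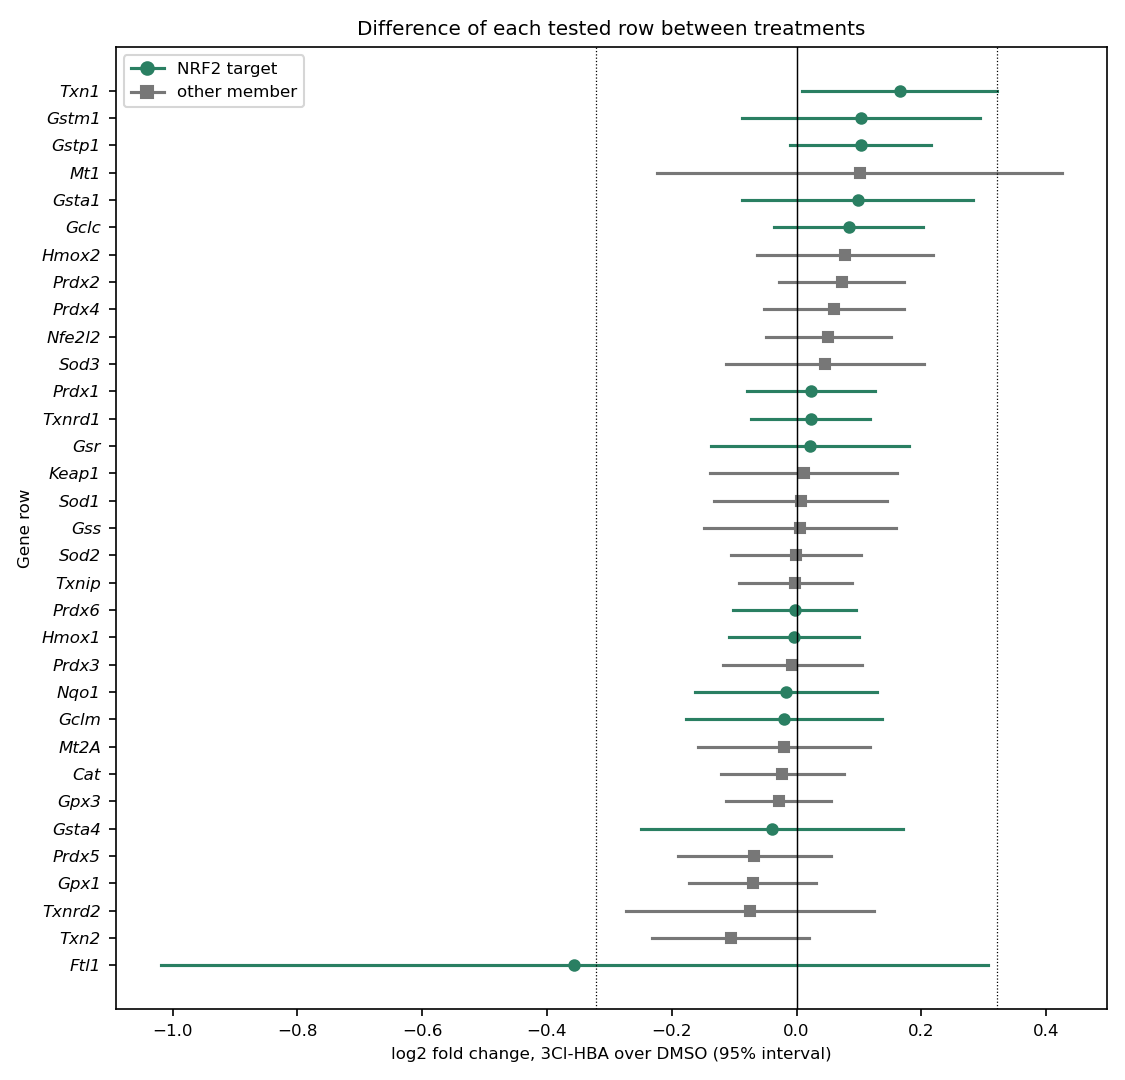
Log2 fold change of 3Cl-HBA over DMSO for each of the 33 tested rows, with its 95% interval from edgeR; circles are NRF2 targets, squares are other members, and dotted lines mark 1.25-fold. Only Txn1 (0.17) has an interval clear of 0, and the intervals of Txn1, the Mt1 row and the Ftl1 row pass a dotted line.

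The intervals say how large a difference these libraries leave room for. They lay inside 1.25-fold for 30 of the 33 members (90.9%), against 59.6% of all genes tested and 74.6% of those with a mean of at least 5 CPM. Within 1.5-fold were 32 members (97.0%), against 80.9% of all genes and 97.5% of those with at least 5 CPM. The exceptions to the narrower bound were Txn1, whose upper end lay just past it, the Mt1 row, whose upper end was 1.34-fold, and the Ftl1 row, whose lower end was 0.493-fold. Reading Srxn1, Gstm2 and Ftl1 by RefSeq gene number and leaving out the Mt1 row gave 34 tested members, of which 17 were above 0, 2 had an unadjusted p under 0.05 and 32 had an interval inside 1.25-fold.

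Library by library, the extremes of the members were not shared out evenly. DMSO library 3 had the highest CPM of the 6 for 12 of the 33 members and DMSO library 1 the lowest for 12. Among the treated libraries, library 1 was highest for 10 and library 2 lowest for 6. The DMSO libraries alone could span the treated level: Gstm1, Gsta1, Sod1, Prdx3 and the Mt1 row each had DMSO values on both sides of the treated mean.

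**Figure D4:**
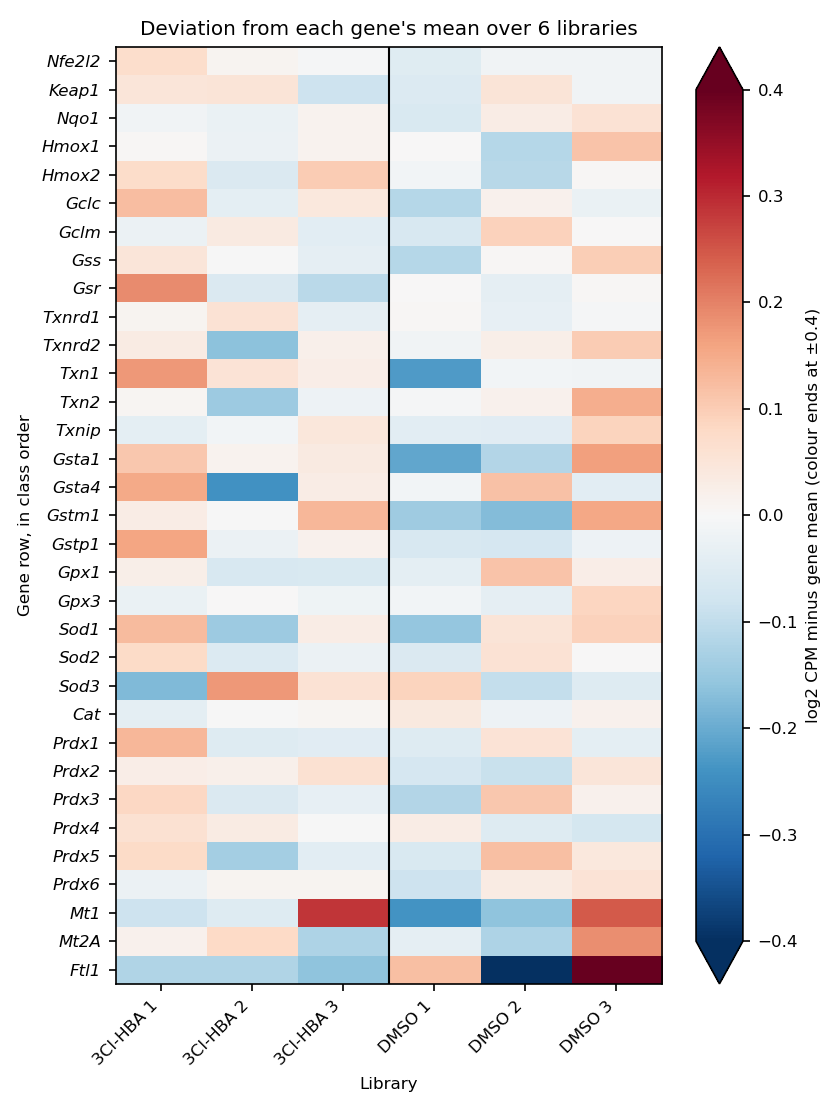
Deviation of log2 CPM from each gene's mean over the 6 libraries, for the 33 tested rows in class order; red is above and blue below the mean, and the line separates 3Cl-HBA from DMSO. DMSO 1 is mostly blue and DMSO 3 mostly red, while no block of rows changes colour at the line.

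Genes around the members were read from the same test. Of 61 other genes of the pathway with enough reads, 0 passed and 29 lay above 0 (median -0.0024 on the log2 scale); 3 had an unadjusted p under 0.05, where 5.11% of all genes did. These were Sesn2, a stress-induced sestrin (log2 fold change 0.16, SE 0.061), Gstz1, a zeta-class transferase (0.25, SE 0.10), and Gpx8, a peroxidase of the endoplasmic reticulum (0.17, SE 0.070), each with an adjusted p of 0.959 in edgeR. In this list 4 of the 61 had groups apart with 3Cl-HBA higher (5.24% of all genes) and 4 with 3Cl-HBA lower (5.22% of all genes), shares near those of all genes.

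Partners of NRF2 were led by Sqstm1, the adaptor p62 that can capture KEAP1, at 226 ± 4.53 FPKM after 3Cl-HBA and 225 ± 3.40 FPKM in DMSO, and Nfe2l1, a relative of NRF2, at 67.9 ± 1.14 FPKM after 3Cl-HBA and 72.0 ± 1.93 FPKM in DMSO (SD, n = 3 each). NADPH is the electron source for both thiol systems. The genes listed around its supply were led by Idh2 and Tkt, with log2 fold changes of -0.018 and 0.040. Tkt, a pentose phosphate enzyme, does not make NADPH itself. Of 7 genes tested in that list, 3 were above 0. For cystine and glutathione transport, Slc3a2, the heavy chain of the cystine carrier, had a log2 fold change of -0.047. Abcc1, a glutathione conjugate exporter, had -0.11. Slc7a11, the other chain of the cystine carrier, had -0.035. It averaged 1.49 FPKM over the 6 libraries, against 118 FPKM for Slc3a2. In this list 1 of 6 tested was above 0.

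Other glutathione transferases had 6 of 8 above 0, with a median log2 fold change of 0.12, and 0 passed; the most abundant were the microsomal Mgst3 at -0.014 and Mgst1 at 0.090. Among other thiol enzymes, Glrx3 had 0.014 and Glrx2 0.085 on the log2 scale. Iron genes were led by Tfrc, the transferrin receptor, at 0.0031, and Ncoa4, the ferritin autophagy receptor, at -0.024. The zinc carriers Slc39a14 and Slc30a5 had log2 fold changes of 0.035 and -0.034. Mtf1, the gene of the metal-sensing factor, had 6, 5 and 3 reads in the 3Cl-HBA libraries and 4, 4 and 3 in DMSO. That row fell below the low-count filter. The selenoproteins Selenop, a selenium carrier, and Selenot had -0.058 and 0.013. Sources of oxidants were led by Cyba, a subunit of NADPH oxidases, at -0.0042, and Maoa, a mitochondrial monoamine oxidase, at -0.080.

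Over all genes the log2 fold change varied with gene length, and the members are short. With the genes tested divided by length into 4 equal bins, the median was 0.012 in the bin of the shortest genes and -0.022 in that of the longest; 19 of the 33 members belonged to the first bin and 0 to the last. Those 19 members had a median of -0.0044, and Txn1, the shortest at 315 bases, had a log2 fold change of 0.16 with the length trend removed. Markers of other cells the culture could hold had sums that overlapped between the groups: macrophage markers summed to 382 to 398 CPM after 3Cl-HBA and 363 to 393 CPM in DMSO, endothelial markers to 513 to 538 CPM after 3Cl-HBA and 492 to 564 CPM in DMSO, and smooth muscle and pericyte markers to 1711 to 1734 CPM after 3Cl-HBA and 1658 to 1822 CPM in DMSO, and their part in any single value was not tested.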

How the data were processed

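RNA-seq of neonatal rat cardiomyocytes was read from a table of the whole series: whole-number read counts per gene, not normalised, and FPKM that the authors deposited beside them, with the gene length they used, per the file headers. Columns were assigned through the labels' treatment protocol. RNA was prepared with a ribosomal RNA removal kit, and the labels' protocols name DESeq2; the sources used here give no aligner, counting program, strand setting, genome build or annotation. FPKM were used as deposited, without a test. The counts were fitted with edgeR 4.0.16 under R 4.3.3 (TMM scaling; a filterByExpr minimum of 10 counts; glmQLFit with robust set, then glmQLFTest; no block term) over all 13903 genes that passed, called at a Benjamini-Hochberg adjusted p under 0.05. Differences are 3Cl-HBA minus DMSO, with 95% intervals from the fit. DESeq2 1.42.0 and limma 3.58.1 (voom) were alternatives. The members and lists were chosen with earlier results of these data known. Values in every library are given for the 2 most abundant members of each class, any with groups apart or an unadjusted p under 0.05, and the extremes of the fold change; of other pathway genes, the 2 most abundant of each group and any with an unadjusted p under 0.05. Rows matched by RefSeq gene number, and the values of Mtf1 and Slc7a11, were added after seeing the data. The fitting procedure was tested on simulated data.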

Additional observations from a re-analysis of the deposited data

How the results depend on the processing

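No member passed under any of the alternatives run. Of 495 member values under them, 453 kept their direction; 42 turned, in 19 members, 35 of them on leaving out a library. Over all genes the count called was 0 as reported, 1 with limma-voom and 2 without a filter on low counts. Leaving out a library gave 0 to 8: 8 without DMSO replicate 3, 3 without 3Cl-HBA replicate 3, 2 without 3Cl-HBA replicate 2 and 1 without DMSO replicate 2. Members above 0 then numbered 14 to 24, lowest without DMSO replicate 1 or 3Cl-HBA replicate 1 and highest without DMSO replicate 3, and the members' median log2 fold change ran from -0.014 to 0.026, so its sign is not settled. Without the filter, Txnip stood at 0.0019, Sod2 at 0.0027 and Prdx6 at 0.00071; with the length trend removed, Gss stood at -0.013 and Sod1 at -0.0049, and with the replicate block as well at -0.012 and -0.0050. The cause was not tested. Leave-one-out log2 fold changes ran from -0.014 to 0.052 for Keap1, -0.048 to 0.054 for Gss, -0.072 to 0.076 for Gsr, -0.027 to 0.041 for Txnip, -0.066 to 0.079 for Sod1, -0.039 to 0.057 for Prdx1, -0.045 to 0.020 for Prdx6, -0.061 to 0.051 for Hmox1, -0.00095 to 0.043 for Txnrd1, -0.13 to 0.067 for Gsta4, -0.040 to 0.027 for Sod2, -0.037 to 0.14 for Sod3, -0.065 to 0.047 for Prdx3, -0.028 to 0.26 for Mt1, -0.086 to 0.069 for Mt2A, -0.057 to 0.022 for Gclm, -0.052 to 0.0039 for Nqo1, -0.054 to 0.0048 for Gpx3, -0.63 to 0.033 for Ftl1.

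The replicate block called 0 genes and gave 0 members an unadjusted p under 0.05. Same-numbered libraries deviated with correlations of -0.069, -0.044 and -0.045, against -0.015 to 0.060 for libraries with different numbers. No shared deviation by number was seen. These correlations cannot tell whether same-numbered libraries came from the same preparation. No member symbol had several rows, so summing rows was not applicable. The Gpx4 and Fth1 rows held too few reads to test, and the Mt1 and Ftl1 rows had the widest intervals.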
